A study of Mus musculus with 6 samples.

Results

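The 10 chemokines and inflammatory secreted factors described here were chosen by name: Ccl2, Ccl7, Ccl5, Cxcl1, Cxcl5, Il6, Lcn2, Saa3, C3 and Nfkbia. Of these 10 genes, 8 were measured among the 12830 genes of the deposited table, and Cxcl1 and Il6 are not analysed here. RNA had been sequenced from primary mouse bone marrow stromal cells (BMSCs), the adherent marrow cells that can form bone and fat cells, at 2 days of osteogenic induction. The design compared 3 control libraries, called FF, from 8-week-old Rras2f/f mice with 3 conditional knockout libraries, called cKO, from Prx1;Rras2f/f mice of the same age. Both groups thus carry the floxed Rras2 allele, and both had the same induction. The Prx1 promoter is used to delete floxed genes in limb mesenchyme, a lineage separate from the blood cells of the marrow. The labels do not say whether the 3 libraries of a group are separate animals. The p-values therefore reflect the spread among these samples alone, and that spread may be technical.

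Chemokines are small secreted proteins that draw white blood cells along a gradient. CC chemokines such as Ccl2 and Ccl7 act mainly on monocytes, and CXC chemokines such as Cxcl5 act mainly on neutrophils. In stromal cells, many of these genes are switched on through NF-kB, a transcription factor held inactive by the inhibitor IkBa, which Nfkbia encodes and which NF-kB itself induces. Marrow stroma is known for releasing Ccl2 and related factors that govern the exit of monocytes and neutrophils into blood.

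Summed over the listed genes, the libraries held between 31934714 and 37561452 counts. Levels are given as CPM, read counts scaled to a common library size by TMM (edgeR's counts-per-1e6 unit). Rras2 was 49.7, 50.1 and 44.7 CPM in FF and 26.7, 29.0 and 26.8 CPM in cKO, a log2 fold change of -0.81 (edgeR quasi-likelihood test, adjusted p = 1.08e-05). The cultures held RNA of both stromal and macrophage marker genes. Sums over such lists do not give the share of RNA from a cell type. All 14 stromal marker genes were measured, with summed levels of 23336 to 24756 CPM in FF and 18978 to 20878 CPM in cKO. They were split, with 2 higher and 3 lower in cKO at an edgeR adjusted p below 0.05. From FF to cKO, mean levels fell from 8159 to 5427 CPM for Col1a1 and from 6717 to 4949 CPM for Col1a2. Those of Cxcl12 rose from 3483 to 4838 CPM, and those of Lepr from 33.6 to 46.4 CPM. All 15 macrophage markers were measured too, at 24021 to 25393 CPM in FF and 26077 to 26854 CPM in cKO. In such bulk libraries, fewer cells of a type and less RNA per cell cannot be told apart. FF replicate 1 stood apart from the other libraries in interferon response genes: all 25 measured genes of that list had their highest level there. Fold changes of the 8 genes that turn without it, and their median, are given with and without it.

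None of the 8 measured genes passed the test between the groups. It called 0 of 8, beside 4.84% of all genes tested, 2.1% higher and 2.74% lower in cKO. The test was edgeR quasi-likelihood, with p below 0.05 after Benjamini-Hochberg adjustment over 12830 genes. At an unadjusted p below 0.05 the count was also 0 of 8, against 17.35% of all genes. DESeq2 and limma-voom likewise called 0 of the 8. So did the authors' deposited table, but it is no check apart from DESeq2, because its values nearly equal those of the DESeq2 run. For Ccl2 both gave a log2 fold change of -0.188 and an adjusted p of 0.918. The groups overlapped for each of the 8 genes, and they did not overlap for 22.5% of all genes. With only 8 genes, counts of 0 cannot be told apart from these shares. Log2 fold changes were negative for 6 genes and positive for 2, with a median of -0.17, beside 0.00058 over all genes. Without FF replicate 1 they were positive for 5 and negative for 3, with a median of 0.23, so the sign of the median rests on that library. A missed threshold does not show equal levels, and the 95% intervals below give the changes these libraries leave possible.

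**Figure D1:**
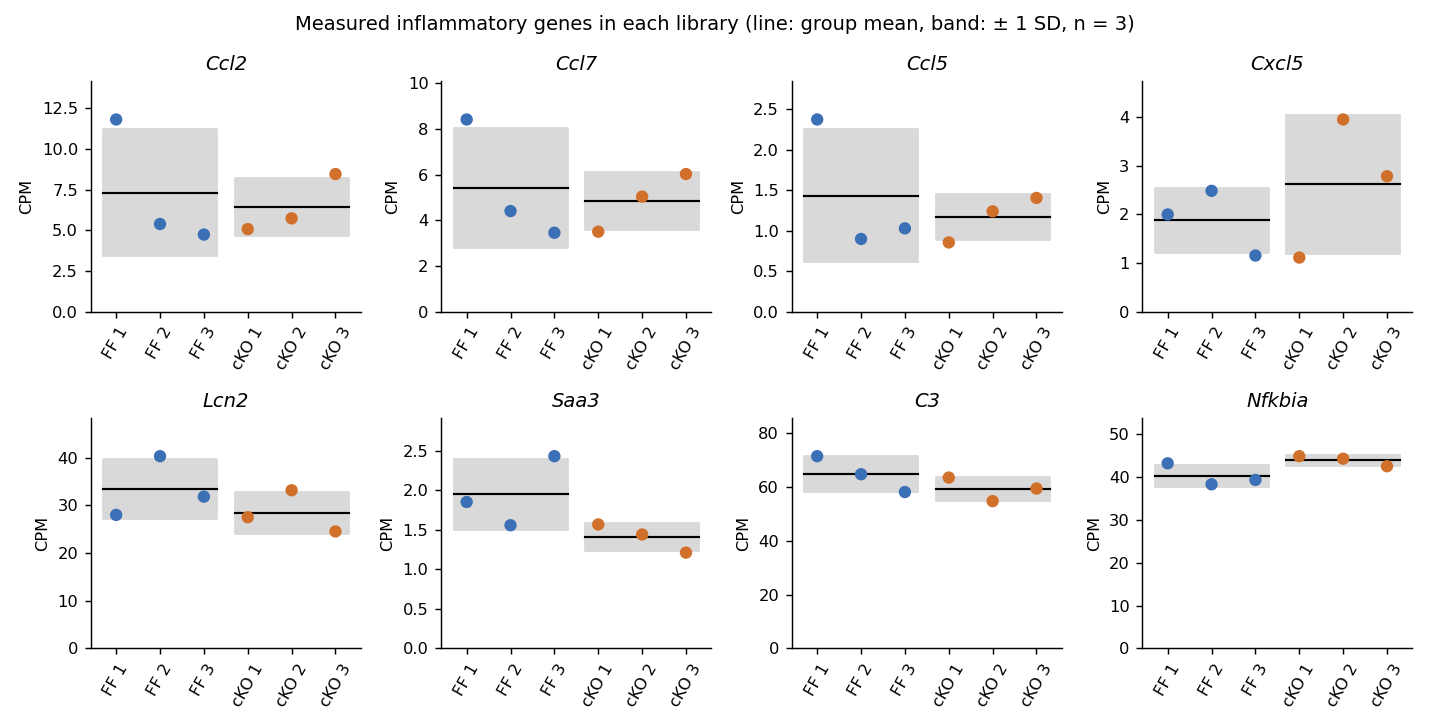
Level in CPM (vertical axis, from 0) of each of the 8 measured genes in each library, FF in blue and cKO in orange, with the group mean as a line and 1 SD as a grey band (n = 3). FF replicate 1 is the highest library for Ccl2, Ccl7, Ccl5 and C3, while Nfkbia stays between 38.3 and 44.8 CPM.

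The monocyte-attracting chemokine Ccl2 (chromosome 11, 82035571 to 82037453, plus strand, mm10) had 11.8, 5.39 and 4.74 CPM in FF and 5.07, 5.73 and 8.45 CPM in cKO. FF replicate 1 was the highest library, cKO replicate 3 came next, and the other 4 lay close together whatever their group. The FF mean was 7.31 ± 3.91 CPM and the cKO mean 6.42 ± 1.79 CPM (SD, n = 3). Its log2 fold change was -0.19, with a 95% interval from -1.40 to 1.03 and an edgeR adjusted p of 0.892. Expressed as a ratio of cKO to FF, that interval runs from 0.379 to 2.04. Without FF replicate 1 the log2 fold change turned to 0.34 (edgeR adjusted p = 0.517).

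Ccl7, which acts on the same monocyte receptor as Ccl2, lies 8258 bases from it on chromosome 11 (82045712 to 82047525, plus strand). It had 8.42, 4.41 and 3.46 CPM in FF and 3.51, 5.04 and 6.03 CPM in cKO. The order of the libraries was the same as for Ccl2 in all 6. The ratio of Ccl2 to Ccl7, taken on FPKM values, which are scaled per kilobase, was between 1.12 and 1.43 in every library. For Ccl7 the log2 fold change was -0.16, with a 95% interval from -1.14 to 0.82 (edgeR adjusted p = 0.891). It turned to 0.30 without FF replicate 1 and to 0.028 without cKO replicate 1 (edgeR adjusted p = 0.620 and 0.983).

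Ccl5, the chemokine RANTES that draws T cells and monocytes, lies farther along chromosome 11 (83525778 to 83530518, minus strand). It was scarce, with 82, 34 and 33 counts in FF and 30, 43 and 51 counts in cKO. These correspond to 2.37, 0.898 and 1.03 CPM in FF and 0.855, 1.24 and 1.40 CPM in cKO. FF replicate 1 was again the highest and cKO replicate 3 the next. The log2 fold change of -0.29 had a 95% interval from -1.10 to 0.51 (edgeR adjusted p = 0.758), and it was 0.28 without FF replicate 1 (edgeR adjusted p = 0.797).

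The interferon response list moved with these 3 chemokines, and with C3 in its highest and lowest libraries. Its 25 genes summed to 3355 CPM in FF replicate 1, 1201 CPM in cKO replicate 3 and 1179 CPM in FF replicate 2. The other 3 libraries were at 689 to 808 CPM. FF replicate 1 thus led in the interferon list and in Ccl2, Ccl7 and Ccl5 alike, and cKO replicate 3 came next in all of them. The order below that differed, since cKO replicate 2 had the lowest interferon sum but the third highest Ccl2, Ccl7 and Ccl5. The list had 0 called genes of 25 (4.84% of all genes were called). Its median log2 fold change was -1.26, and -0.18 without FF replicate 1. Bst2, an interferon-induced membrane protein gene of that list, had 208 CPM in FF replicate 1 and 77.8 to 131 CPM in the other libraries. The part of the interferon state in these values was not tested.

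**Figure D2:**
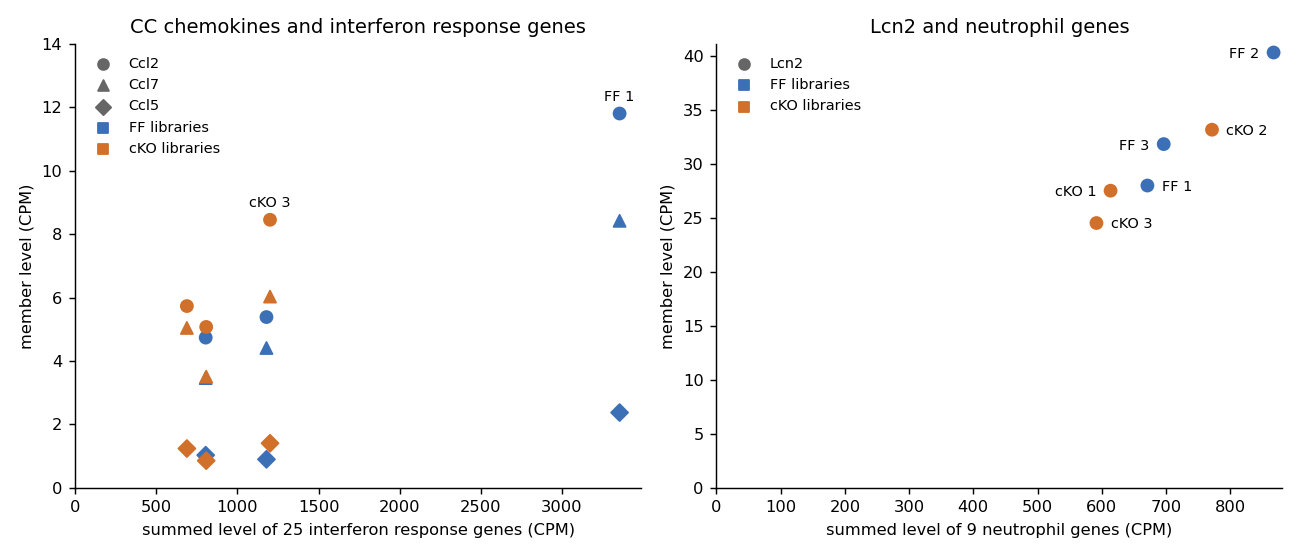
Left, level of Ccl2, Ccl7 and Ccl5 (CPM) in each library against the summed level of 25 interferon response genes (CPM); right, level of Lcn2 (CPM) against the summed level of 9 neutrophil genes (CPM). Each point is 1 library, FF in blue and cKO in orange; FF replicate 1 lies alone at 3355 CPM on the left, and on the right Lcn2 and the neutrophil sum order the 6 libraries alike.

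Cxcl5, a neutrophil-attracting chemokine (chromosome 5, 90759360 to 90761624, plus strand), followed a pattern of its own. It had 2.00, 2.48 and 1.15 CPM in FF and 1.11, 3.95 and 2.78 CPM in cKO. cKO replicate 2 was the highest, while cKO replicate 1 and FF replicate 3 were the lowest and nearly equal. Counts ranged from 37 to 137 per library, a spread of 3.55-fold in CPM, the widest among the 8 genes. Its log2 fold change was 0.47 with a 95% interval from -0.68 to 1.62 (edgeR adjusted p = 0.701). Without cKO replicate 2 it was 0.048, and without cKO replicate 1 it was 0.83 (edgeR adjusted p = 0.977 and 0.107).

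Lcn2 encodes lipocalin 2, an iron-scavenging protein of neutrophil granules that stromal and epithelial cells also make in inflammation (chromosome 2, 32384633 to 32388252, minus strand). It had 28.0, 40.3 and 31.9 CPM in FF and 27.5, 33.2 and 24.5 CPM in cKO. Replicate 2 was the highest library in each group, and the groups overlapped. The FF mean was 33.4 ± 6.31 CPM and the cKO mean 28.4 ± 4.39 CPM (SD, n = 3). The log2 fold change of -0.23 had a 95% interval from -0.68 to 0.22 (edgeR adjusted p = 0.593). It was -0.073 without FF replicate 2, and -0.23 with replicate number as a block (edgeR adjusted p = 0.128).

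Neutrophil genes moved with Lcn2. Of 11 neutrophil markers 9 were measured and 0 were called, beside 4.84% of all genes. Their summed level was 671, 867 and 696 CPM in FF and 614, 772 and 592 CPM in cKO, which puts the 6 libraries in the same order as Lcn2. Ngp, a neutrophil granule protein, had 201, 267 and 208 CPM in FF and 182, 232 and 169 CPM in cKO. S100a9, a calcium-binding protein of neutrophils and monocytes, had 162, 208 and 165 CPM in FF and 141, 198 and 150 CPM in cKO. The part of neutrophil RNA in the Lcn2 values was not tested.

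Saa3, the serum amyloid A gene that mouse fibroblasts and macrophages express outside the liver (chromosome 7, 46711998 to 46715700, minus strand), had 44 to 78 counts per library. In CPM it was 1.85, 1.56 and 2.43 in FF and 1.57, 1.44 and 1.21 in cKO. FF replicate 2 lay just under cKO replicate 1, so the groups overlapped. Its log2 fold change of -0.46 had a 95% interval from -1.02 to 0.089 (edgeR adjusted p = 0.390), and it was -0.28 without FF replicate 3. In the authors' deposited table Saa3 stood at -0.47 on the log2 scale with an adjusted p of 0.507.

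C3, the central complement protein that is cleaved when complement is activated, is the longest of the 8 genes (chromosome 17, 57203970 to 57228136, minus strand). It had 71.4, 64.7 and 58.1 CPM in FF and 63.5, 54.7 and 59.4 CPM in cKO. FF replicate 1 was the highest and cKO replicate 2 the lowest, as for the interferon sum. The FF mean of 64.8 ± 6.66 CPM and the cKO mean of 59.2 ± 4.39 CPM differed by less than 1 SD of the FF libraries (SD, n = 3). On the log2 scale C3 differed by -0.13, with a 95% interval from -0.30 to 0.039 and an edgeR adjusted p of 0.437. It was -0.055 without FF replicate 1.

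Nfkbia, which encodes the NF-kB inhibitor IkBa and is itself an NF-kB target (chromosome 12, 55489410 to 55492647, minus strand), was the steadiest of the 8. It had 43.1, 38.3 and 39.3 CPM in FF and 44.8, 44.2 and 42.5 CPM in cKO. The cKO libraries lay above FF replicates 2 and 3, and cKO replicate 3 lay just below FF replicate 1. Its log2 fold change was 0.12 with a 95% interval from -0.015 to 0.26 (edgeR adjusted p = 0.353). As a ratio of cKO to FF the interval spans 0.99 to 1.20, the narrowest of the 8. Leaving out any 1 library kept the value between 0.090 and 0.18.

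**Figure D3:**
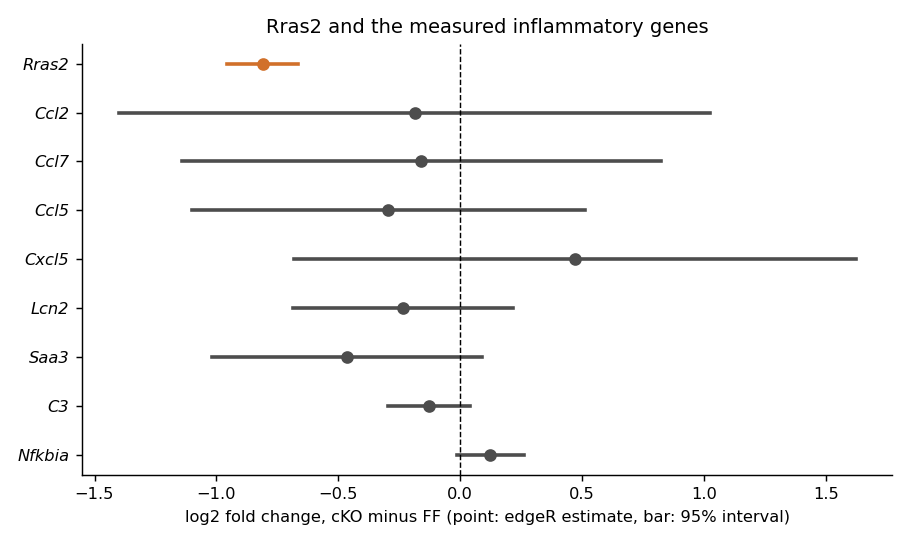
Log2 fold change of cKO minus FF (horizontal axis) for Rras2, in orange, and the 8 measured genes, in grey, with points for the edgeR estimate and bars for its 95% interval. The bars of all 8 genes cross 0, from the wide bar of Cxcl5 (-0.68 to 1.62) to the narrow bar of Nfkbia (-0.015 to 0.26).

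Promoter sequence is shown for Nfkbia, C3 and Saa3, because these genes stand for the NF-kB feedback, complement and acute phase arms, and because Nfkbia was steady while Saa3 was scarce. RefSeq promoters (GRCm38.p6, the mm10 build) matched 4 of the 8 measured genes, namely Lcn2, Saa3, C3 and Nfkbia. The 250 bases before the RefSeq gene start are given 5′ to 3′ on the gene's strand, which is minus for all 3. Capitals mark matches to the kappa B consensus of NF-kB, to TTNNGNAA for C/EBP factors and to the interferon-stimulated response element (GAAA, 2 bases of any kind, GAAA), each searched on both strands with overlaps allowed. The windows are chr12:55492648-55492897 for Nfkbia, chr17:57228137-57228386 for C3 and chr7:46715677-46715926 for Saa3. The RefSeq start of Saa3 lies inside the gene as GENCODE draws it, so the last 24 bases of its window fall within the coordinates given above.
Nfkbia: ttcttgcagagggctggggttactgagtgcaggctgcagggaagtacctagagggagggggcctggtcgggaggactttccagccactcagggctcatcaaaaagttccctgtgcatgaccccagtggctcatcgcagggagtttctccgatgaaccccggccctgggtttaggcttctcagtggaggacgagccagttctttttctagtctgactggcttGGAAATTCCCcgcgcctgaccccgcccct
C3: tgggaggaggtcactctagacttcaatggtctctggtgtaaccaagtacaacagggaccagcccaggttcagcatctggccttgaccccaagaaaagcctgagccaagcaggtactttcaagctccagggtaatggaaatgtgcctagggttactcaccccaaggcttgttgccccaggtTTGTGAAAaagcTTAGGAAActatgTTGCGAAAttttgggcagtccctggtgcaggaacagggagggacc
Saa3: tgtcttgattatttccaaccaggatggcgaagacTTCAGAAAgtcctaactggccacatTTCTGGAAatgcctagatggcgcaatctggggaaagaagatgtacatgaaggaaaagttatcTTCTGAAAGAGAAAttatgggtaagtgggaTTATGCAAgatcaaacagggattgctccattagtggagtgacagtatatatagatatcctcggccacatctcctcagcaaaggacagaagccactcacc
The Nfkbia window holds 1 kappa B match, read on the opposite strand, 29 to 20 bases before the start. A kappa B match was present in 7.25% of 32817 promoter windows of this length. C3 holds 3 C/EBP matches, the nearest 45 to 38 bases before the start, and Saa3 holds 4. The Lcn2 window lies wholly inside the gene as GENCODE draws it, and its matches are left out. Such a match was present in 36.8% of all windows. Saa3 also holds 1 interferon-type match, which overlaps a C/EBP match and occurred in 2.97% of windows. These matches describe the letters of the windows and nothing about binding.

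How far the libraries spread within a group set the precision of each comparison. The within-group variance was divided by the variance that counting alone would give, so that a value of 1 means counting noise only. It was 44.9 for Ccl2, 33.5 for Lcn2, 27.6 for Ccl7, 17.6 for Cxcl5, 17.0 for C3 and 9.38 for Ccl5. Nfkbia was at 3.54 and Saa3 at 2.17, the value nearest to counting noise. For a given spread in level this ratio rises with depth, so it does not rank precision. The 95% interval was wider for Saa3 (-1.02 to 0.089) than for C3 (-0.30 to 0.039). The median within-group SD of log2 CPM was 0.40 over the 8 genes and 0.090 over all genes. These medians were not matched for level, and counting adds more to this SD in scarce genes such as Ccl5 and Saa3. In the ranking of all genes by this SD, Cxcl5, Ccl5, Ccl2 and Ccl7 stood at the 98.8, 97.9, 97.8 and 97.6 percentiles. Saa3 stood at 89.2, Lcn2 at 88.2, C3 at 69.1 and Nfkbia at 34.5.

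Levels can be ordered between genes on the deposited FPKM values, which are scaled per kilobase. Over the 6 libraries the mean FPKM was 30.8 for Lcn2, 24.3 for Nfkbia, 10.9997 for C3, 7.66 for Ccl2, 5.82 for Ccl7, 2.69 for Saa3, 2.20 for Ccl5 and 1.29 for Cxcl5. Lcn2 and Nfkbia overlapped, with 24.1 to 40.9 and 22.5 to 25.9 FPKM. C3 at 9.70 to 12.5 FPKM stood below Nfkbia in every library, and overlapped Ccl2 at 5.35 to 13.0 FPKM. Ccl7, at 3.97 to 9.42 FPKM, also overlapped Ccl2 and lay just above Saa3, at 1.95 to 3.87 FPKM. Saa3 did not overlap Ccl7, but it overlapped Ccl5 (1.46 to 3.996 FPKM), which in turn overlapped Cxcl5 (0.644 to 2.28 FPKM).

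**Figure D4:**
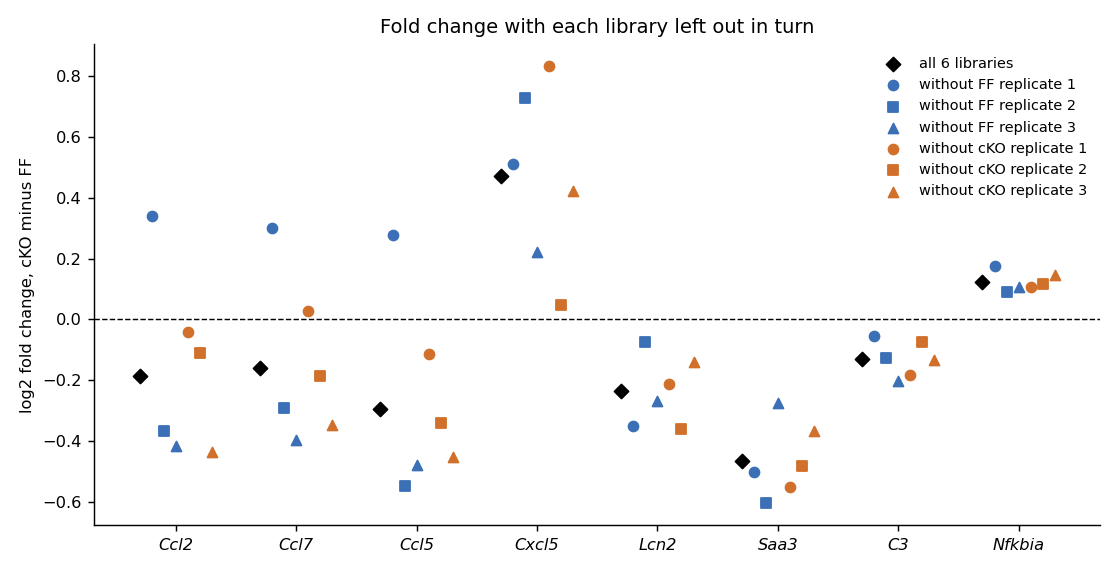
Log2 fold change of cKO minus FF (vertical axis) for each of the 8 genes with all 6 libraries (black) and with each library left out in turn (blue for an FF library, orange for a cKO library). Ccl2, Ccl7 and Ccl5 move above 0 without FF replicate 1, at 0.34, 0.30 and 0.28, while Nfkbia stays between 0.090 and 0.18.

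For each gene, the genes most like it were sought among 1022 other genes (mean level 5 CPM or more, SD of log2 CPM 0.2 or more), by Pearson correlation of log2 CPM over the 6 libraries. These are descriptions, since the best of so many candidates is high in any set of 6 libraries. Ccl2 was most like Ms4a6b, a membrane protein gene (r = 0.99, Spearman rho = 0.94), Psmb8, a subunit of the immunoproteasome (r = 0.98, rho = 0.71), and Ifi27l2a, an interferon-induced gene (r = 0.97, rho = 0.89). Without the 2 libraries farthest from the median of Ccl2 these r values were 0.85, 0.22 and 0.38, so the latter 2 rest on those libraries. Ccl7 was most like Trim30c, Ms4a6b and Mitd1 (r = 0.95, 0.94 and 0.93; 0.85, 0.78 and 0.92 without its 2 farthest libraries). The genes nearest to Ccl5 were Nt5c3, Zup1 and Psmb9 (r = 0.97, 0.96 and 0.96). Lcn2 was most like Chil3, a chitinase-like protein gene, Ngp and Camp, a granule peptide gene (r = 0.99, 0.98 and 0.95; rho = 1, 1 and 0.94). Without the 2 libraries farthest from the median of Lcn2 these were 0.96, 0.89 and 0.85. The genes nearest to Cxcl5 included Inhba and Nanp. Saa3 was nearest to Tbc1d25, Arhgap33 and Pigo, C3 to Prr5l, L1cam and Ccdc86, and Nfkbia to Acyp1, Adamtsl4 and Matk, and r for these and for Inhba and Nanp ran from 0.89 to 0.97. For the genes named as nearest to Ccl5, Cxcl5, Saa3, C3 and Nfkbia, r without the 2 farthest libraries lay between 0.51 (Arhgap33) and 0.998 (Nt5c3).

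Around these genes, 11 lists of the same pathways held 193 measured genes, of which 9 were higher and 5 lower in cKO (7.25% called, beside 4.84% of all genes). The lists were chosen with earlier results of these data known, so the difference between these shares cannot be read as enrichment. Among the other chemokine ligands 2 of 15 were higher and 0 lower, with a median log2 fold change of 0.15. Cxcl12, which holds blood stem cells in the marrow, had 3425, 3427 and 3597 CPM in FF and 4636, 4969 and 4910 CPM in cKO. All its cKO libraries were above all FF libraries, with a log2 fold change of 0.47 (SE 0.051, edgeR adjusted p = 9.98e-05). Ccl6, a CC chemokine of macrophages that lies 57363 bases from Ccl5, had 114, 111 and 115 CPM in FF and 141, 146 and 158 CPM in cKO. Ccl6 was higher by 0.39 on the log2 scale (edgeR adjusted p = 0.000412). Its neighbours Ccl9 and Ccl3, chosen here for their place, differed by 0.16 and 0.24 on the log2 scale without passing (edgeR adjusted p = 0.174 and 0.0751).

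Of 11 chemokine receptors 1 was higher and 1 lower, with a median log2 fold change of -0.082, which was 0.013 without cKO replicate 1. Ccr2, the monocyte receptor for Ccl2 and Ccl7, had 136, 117 and 132 CPM in FF and 93.4, 86.3 and 87.0 CPM in cKO. The groups did not overlap, and Ccr2 fell by 0.53 on the log2 scale (SE 0.0576, edgeR adjusted p = 0.000105). The receptor was lower in cKO, and neither ligand passed the test. The 95% intervals of Ccl2 (-1.40 to 1.03) and Ccl7 (-1.14 to 0.82) include a fall of 0.53. A difference between receptor and ligands was not tested. Macrophage markers, given as a sum above, were split: Tyrobp and Mrc1 were higher and Cd14 and Cd163 lower, and the part of macrophage RNA in the Ccr2 values was not tested. Ackr4, a scavenging receptor for CC chemokines, was higher by 0.20 (edgeR adjusted p = 0.0133, and 0.0598 to 0.0714 without FF replicate 1, 2 or 3 or cKO replicate 2). Receptors of the other ligands were chosen by role. Ccr1, which binds Ccl5, differed by 0.27 on the log2 scale, and Cxcr2, which binds Cxcl5, by -0.082 (edgeR adjusted p = 0.144 and 0.933).

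Among other cytokines 1 of 16 was higher and 0 lower, with a median log2 fold change of 0.031, or 0.0043 to 0.11 with 1 library left out. That gene was Il7, a stromal growth factor for lymphocyte precursors, at 11.8, 11.4 and 11.7 CPM in FF and 16.1, 14.001 and 17.2 CPM in cKO (log2 fold change 0.44, edgeR adjusted p = 0.0197). Its call ended without FF replicate 1, 2 or 3 or cKO replicate 3 (0.0530 to 0.0945) and in limma-voom (0.0511). Of 30 cytokine and innate receptors 3 were higher and 2 lower, with a median of 0.029. Il1r1, the interleukin 1 receptor, was higher by 0.44 on the log2 scale (edgeR adjusted p = 0.0129, but 0.0807 without FF replicate 2, 0.0679 without cKO replicate 3 and 0.0560 in limma-voom). Tnfrsf1b, a TNF receptor, and Tlr1, a toll-like receptor, were higher by 0.17 and 0.20, whereas Cd14, the lipopolysaccharide co-receptor, fell by 0.18 (edgeR adjusted p = 0.0355, 0.0409 and 0.0198). Each of the latter 3 lost its call without FF replicate 1, 2 or 3 in turn, and also without cKO replicate 3 (Tnfrsf1b), 2 (Cd14) or either of them (Tlr1), with adjusted p from 0.0704 to 0.201. Tnfrsf1b also missed in limma-voom (adjusted p = 0.0609) and Tlr1 with replicate number as a block (edgeR adjusted p = 0.0539). The fifth call, outside the naming rule, was Lifr, the receptor for leukaemia inhibitory factor, which fell by 0.54 (edgeR adjusted p = 0.0495) and lost its call in 4 of the 6 fits that left out a library (0.128 to 0.182: FF replicates 1, 2 and 3 and cKO replicate 2) and under upper-quartile scaling or library totals alone. Il6ra and Il6st, the receptor chains for Il6 and chosen by role, differed by 0.17 and 0.039 on the log2 scale without passing (edgeR adjusted p = 0.151 and 0.687).

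Of 21 components of the NF-kB pathway 0 were called, beside 4.84% of all genes tested. With so few genes, a count of 0 cannot be told apart from that share. The log2 fold changes of these components lay between -0.078 and 0.15 with a median of 0.019. The summed level of these 21 genes was 1346 to 1368 CPM in FF and 1349 to 1376 CPM in cKO. Nfkb1, the p50 subunit gene, averaged 144 ± 2.39 CPM (FF) and 143 ± 2.83 CPM (cKO; SD, n = 3), and Tab2, an adaptor of the pathway, had 208 ± 6.13 and 207 ± 4.43 CPM. Among the other inhibitors and feedback genes 0 of 14 were called, again too few to set apart from 4.84%, with a median of 0.043. Cyld and N4bp1, of the largest mean CPM in that list, had log2 fold changes of 0.047 and 0.057. Of 21 other NF-kB response genes 0 were higher and 1 was lower, with a median of 0.029. That gene was Ptgs2, the inducible cyclooxygenase, at 9.23, 7.68 and 6.45 CPM in FF and 2.82, 2.94 and 2.34 CPM in cKO. Its groups did not overlap, and Ptgs2 fell by 1.53 on the log2 scale (SE 0.173, edgeR adjusted p = 0.000134).

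Il6 signals through JAK kinases and STAT3. Of 12 genes of that route 0 were called (4.84% of all genes), with a median log2 fold change of 0.022. That count is too small to tell apart from the share. Jak1 and Stat3, of the largest mean CPM in that list, had log2 fold changes of 0.09 and -0.076 (edgeR adjusted p = 0.257 and 0.519). The list of other acute phase genes, named for a rise in inflammation, is not confined to secreted proteins. Of its 20 genes 5 were measured, 1 was higher and 0 lower, and the median was 0.19. Cp, the copper carrier ceruloplasmin, had 217, 220 and 213 CPM in FF and 255, 244 and 243 CPM in cKO (log2 fold change 0.19, edgeR adjusted p = 0.0161, and 0.0635 to 0.0873 without FF replicate 1, 2 or 3). Beside C3, 24 complement genes were measured, of which 1 was higher and 1 lower, with a median of 0.059. Vsig4, a macrophage receptor for C3 fragments, had 13.2, 12.0 and 13.3 CPM in FF and 7.75, 7.29 and 8.15 CPM in cKO. The groups did not overlap, and Vsig4 fell by 0.73 (SE 0.106, edgeR adjusted p = 0.000921). Cd59a, which blocks the complement pore, was higher by 0.43 (edgeR adjusted p = 0.0486), but it no longer passed when any library except cKO replicate 1 was omitted (0.103 to 0.191), under limma-voom (0.0808) or with replicate number as a block (0.0618). C3ar1, the receptor for the C3a fragment and chosen by role, differed by 0.0074 on the log2 scale (edgeR adjusted p = 0.969).

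**Figure D5:**
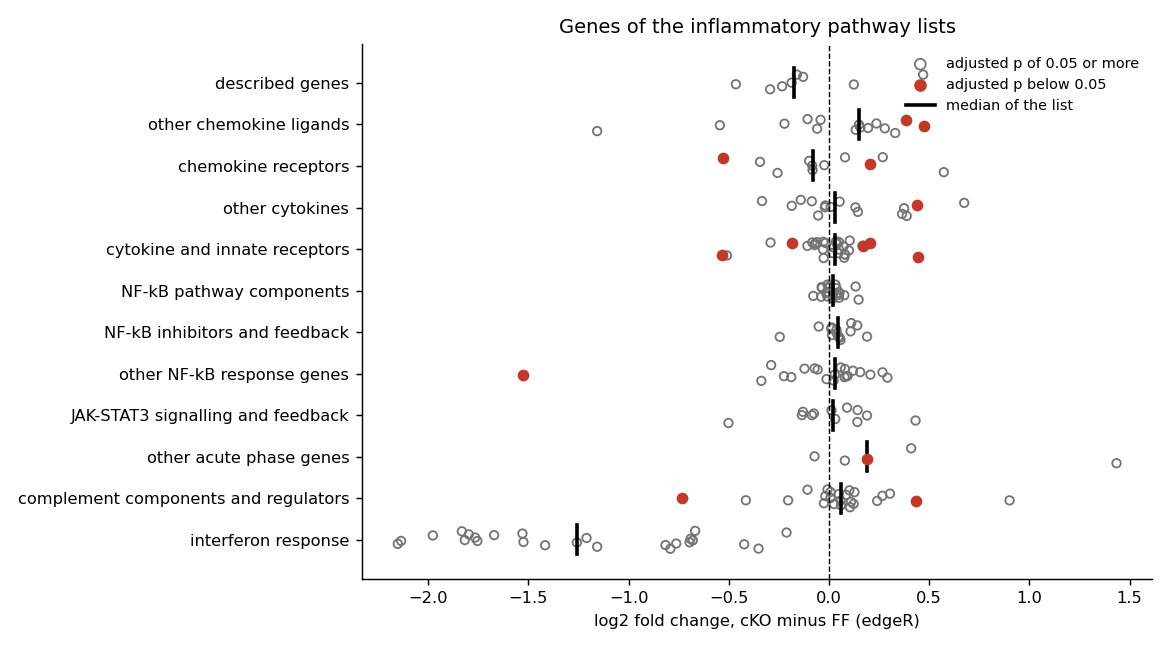
Log2 fold change of cKO minus FF (horizontal axis) for each measured gene of the 8 described genes and the 11 pathway lists (rows), filled red where the edgeR adjusted p was below 0.05, with the list median as a black bar. The 8 described genes hold 0 filled points, Ptgs2 at -1.53 and Vsig4 at -0.73 are the lowest filled points, and the interferon row lies left of 0 with 0 filled points.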

How the data were processed

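RNA of the 6 libraries was prepared with a stranded mRNA kit, per the labels' protocols, and reads were placed on mm10, as the submitters' processing notes list it. For the aligner, counting tool and strand setting, nothing is given in the sources used here. The authors deposited raw gene counts for each library, and, per the file headers, FPKM values, which scale counts by gene length and library size. Per gene, the authors' deposited table also holds its own p-value, raw and adjusted, beside a log2 fold change. The count test was edgeR 4.0.16 under R 4.3.3 (TMM scaling, filterByExpr, which removed 0 genes, robust quasi-likelihood F test, no covariates, Benjamini-Hochberg adjustment, threshold 0.05). The lowest mean count of a gene was 22.3 per library, and no 2 libraries of a group agreed within sampling noise. A standard error is the log2 fold change divided by the square root of F. DESeq2 1.42.0, limma-voom (limma 3.58.1), other scalings and filters, the replicate number as a block, and each library left out were alternatives. Same-numbered libraries did not deviate together (correlations of -0.036, 0.091 and -0.099), so the numbers were not taken as pairs. The members and lists were chosen with earlier results of these data known. Beside every member and Rras2, the genes named were up to 4 called genes of a list by smallest p, or the 2 of largest mean where none was called, and the 3 genes most like each member. Genes outside that rule are said to be so. Some genes that the rule names are not reported here. Of the list genes, 3 were matched by Ensembl identifier. Coordinates are from GENCODE M21. The test was checked on simulated counts, drawn as independent libraries, and the outcome is not reported here. Such counts cannot speak to technical spread or to the part of FF replicate 1.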

Additional observations from a re-analysis of the deposited data

How the results depend on the processing

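No alternative called any of the 8 measured genes: 0 were called under other scaling, with no filter or a mean of at least 1 CPM, in DESeq2, in limma-voom, with the replicate block and without each library. The fit with no filter repeats the main fit, because filterByExpr removed 0 genes. It adds no check, though it is counted among the 14 alternatives. Signs held in all 14 alternatives for Cxcl5, Lcn2, Saa3, C3 and Nfkbia. Without FF replicate 1 the log2 fold changes of Ccl2, Ccl7 and Ccl5 were 0.34, 0.30 and 0.28, over ranges of -0.44 to 0.34, -0.40 to 0.30 and -0.55 to 0.28, and that of Bst2 was 0.16. Ccl7 also had 0.028 without cKO replicate 1. Leaving out 1 library moved Bst2 between -0.61 and 0.16, Nfkb1 between -0.018 and 0.0093 (positive at 0.0039, 0.0071, 0.0022 and 0.0093) and Tab2 between -0.021 and 0.018 (positive at 0.018 and 0.0096). The number of called genes went from 621 to between 268 (without FF replicate 2) and 1166 (without cKO replicate 1), and that in the pathway lists from 14 to between 6 and 21. With the replicate block these were 669 and 14, in DESeq2 848 and 19, and in limma-voom 434 and 10. The median of the 8 genes ran from -0.27 to 0.23 with 1 library left out. List medians turned sign without cKO replicate 1 for chemokine receptors (0.013), NF-kB components (-0.0018) and other NF-kB response genes (-0.025), and the other 8 lists kept theirs. The cause of these shifts was not tested. The calls of Cxcl12, Ccl6, Ccr2, Ptgs2 and Vsig4 held in all 14 alternatives, with adjusted p of at most 0.0101. Over the 3 scalings other than TMM the median of all genes moved by less than 0.1 on the log2 scale. With 30 to 82 counts for Ccl5 and 44 to 78 for Saa3, depth limits what these genes can show.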

Other observations

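Other blood-cell transcripts in the cultures did differ between the groups. Of 9 B and plasma cell markers 5 were measured, and 3 were higher in cKO. Igkc, which encodes the constant part of kappa light chains, averaged 55.5 ± 1.99 CPM in FF and 95.1 ± 1.27 CPM in cKO. Ighm, the IgM heavy chain gene, averaged 119 ± 5.77 and 199 ± 29.1 CPM, and Jchain, the antibody joining chain gene, 10.6 ± 1.18 and 21.0 ± 1.72 CPM. By edgeR's test the adjusted p was 7.39e-07, 0.0241 and 7.46e-05 (SD, n = 3). Endothelial markers had 0 calls of 7 (4.84% of all genes were called), all with negative log2 fold changes and a median of -0.46. Their summed level was 83.8 to 99.0 CPM in FF and 76.8 to 84.3 CPM in cKO. Of 9 T and NK cell markers 2 were measured, Cd4 and Nkg7, and Cd4, which macrophages can also express, was higher by 0.36 on the log2 scale (edgeR adjusted p = 0.0309). Nkg7, a granule protein gene of cytotoxic cells that is outside the naming rule, differed by -0.71 and did not pass (edgeR adjusted p = 0.369).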
